A study of Mus musculus with 3 samples.

Results

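The 41 genes described here belong to the network around the pluripotent state of mouse embryonic stem cells (mESCs). They are transcription factors, signalling genes and chromatin genes, together with markers of that state, and include inhibitors of its signals and a factor of its exit. They were taken by symbol from a fixed list, and every region that the deposited tables assign to one of these symbols was kept, each position counting 1 time per symbol. Of the 41 genes, 19 (46.3%) had at least 1 listed region and 22 had none. The 19 genes held 59 of the 20227 pairs of gene and region in the tables. For comparison, 35.7% of all annotated protein-coding genes had a listed region.

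The regions come from hMeDIP-seq, in which genomic DNA is fragmented and the pieces that carry 5-hydroxymethylcytosine (5hmC) are pulled down with an antibody and sequenced. Sv129 mESCs received normal folate (4 mg/L, FA4) or were kept in folate deficiency (0 mg/L, FA0), and the medium of both held fetal bovine serum. There was 1 immunoprecipitated library per condition, and an FA0 input library that was not used here, so each difference below compares 2 libraries and not 2 conditions and has no replicate check. The tables list a region only if its counts differed between FA4 and FA0. All values are therefore of regions that had already passed a threshold on this contrast, their ratios are not corrected for that choice and tend to be too large, and 5hmC outside the listed regions was not measured here. Of 239268 FA4 reads in all listed regions, 730 fell in the 59 regions of the pluripotency genes, and of 144823 FA0 reads, 432 did. The total depth of each library was not used here. DNA enrichment gives no RNA level, so the labelled cell type could not be checked against the expression of its markers. The labels give no clone or passage for the cells, and the labels and the methods of the study name different kits and fragment sizes.

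Pluripotency rests on a core of Pou5f1 (Oct4), Sox2 and Nanog, which bind their own and each other's regulatory DNA. In the mouse naive state this core is joined by factors such as Esrrb, Klf4, Klf5, Tfcp2l1 and Nr5a2, and is kept up by leukaemia inhibitory factor (LIF), which acts through its receptor and Stat3. 5hmC is made from methylated cytosine by TET enzymes and in mESCs is known to lie at enhancers, in gene bodies and around the edges of CpG-rich promoters. The comparison asked which regions of this network carried more 5hmC enrichment under normal folate and which under folate deficiency.

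The promoter class of the tables covers regions whose centre lies within 2 kb of a transcription start site, and 4 of the 41 genes had such a region. To show how CpG-rich these promoters are, the sequence from 250 bases before to 50 bases after the start is given for each (RefSeq, GRCm38.p6, 5′ to 3′ on the plus strand, which is the coding strand of all 4 genes), with every CG pair in capitals. The windows lie at chr17:35505782-35506081 for Pou5f1, chr2:163054385-163054684 for Mybl2, chrX:86191525-86191824 for Nr0b1 and chr7:139943606-139943905 for Utf1.
Pou5f1: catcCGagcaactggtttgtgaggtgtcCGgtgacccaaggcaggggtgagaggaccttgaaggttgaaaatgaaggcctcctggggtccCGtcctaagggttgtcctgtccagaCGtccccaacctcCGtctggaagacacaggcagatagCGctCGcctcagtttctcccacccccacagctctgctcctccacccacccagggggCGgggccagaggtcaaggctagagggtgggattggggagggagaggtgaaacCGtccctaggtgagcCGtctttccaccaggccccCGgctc
Mybl2: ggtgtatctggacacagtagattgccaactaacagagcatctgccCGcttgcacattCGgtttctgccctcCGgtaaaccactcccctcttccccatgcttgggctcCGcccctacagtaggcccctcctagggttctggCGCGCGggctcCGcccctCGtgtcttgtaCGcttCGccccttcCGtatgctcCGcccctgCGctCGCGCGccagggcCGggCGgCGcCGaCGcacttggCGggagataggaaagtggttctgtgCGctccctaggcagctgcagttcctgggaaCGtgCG
Nr0b1: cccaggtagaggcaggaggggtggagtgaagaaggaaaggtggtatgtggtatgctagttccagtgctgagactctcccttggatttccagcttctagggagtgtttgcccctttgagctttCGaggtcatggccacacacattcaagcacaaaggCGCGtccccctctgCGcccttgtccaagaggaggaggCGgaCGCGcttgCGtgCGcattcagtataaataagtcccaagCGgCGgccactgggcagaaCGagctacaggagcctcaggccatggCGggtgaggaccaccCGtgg
Utf1: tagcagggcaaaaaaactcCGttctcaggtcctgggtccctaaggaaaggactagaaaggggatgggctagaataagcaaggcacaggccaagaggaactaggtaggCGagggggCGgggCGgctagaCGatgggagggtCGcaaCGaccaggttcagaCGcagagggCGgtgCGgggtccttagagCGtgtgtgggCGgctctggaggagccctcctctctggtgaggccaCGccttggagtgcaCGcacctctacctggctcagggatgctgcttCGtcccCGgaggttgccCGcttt
The windows hold 11 CG pairs at Pou5f1, 26 at Mybl2, 14 at Nr0b1 and 17 at Utf1. The listed region lay outside the window at all 4 genes, at a distance of 1121 bp from the window of Pou5f1, 796 bp at Mybl2, 1364 bp at Nr0b1 and 1285 bp at Utf1. Such windows were at hand for 26 of the 41 genes, 37 windows in all, with a median of 14 CG pairs against 7 over the 32851 windows of all genes. None of the 37 overlapped a listed region, against 395 (1.20%) of all windows. At that share fewer than 1 of 37 windows would overlap.

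The 59 regions divided into 22 with more 5hmC enrichment in FA0 and 37 with more in FA4, a share of 37.3% for FA0 (25% to 50.9%, Clopper-Pearson). Over all pairs of gene and region 39.0% were higher in FA0, a value inside that interval. By gene, 6 of the 19 had regions higher in FA0 alone (Esrrb, Lifr, Socs3, Lefty2, Rest and Utf1), against 35.0% of all 9293 symbols with a region. Another 4 had regions higher in FA4 alone (Pou5f1, Nr0b1, Mybl2 and Rif1), against 40.7% of symbols. The other 9 had regions in both directions (Klf4, Klf5, Nr5a2, Sall1, Sall4, Tfcp2l1, Mycn, Jarid2 and Dppa4), against 24.3% of symbols. A gene with many regions has more chances to hold both directions, and 8 of the 19 genes had 3 or more regions and held 44 (74.6%) of the 59. Intervals here and below are at the 95% level and cover counting error only, since PCR copies are not independent molecules.

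**Figure D1:**
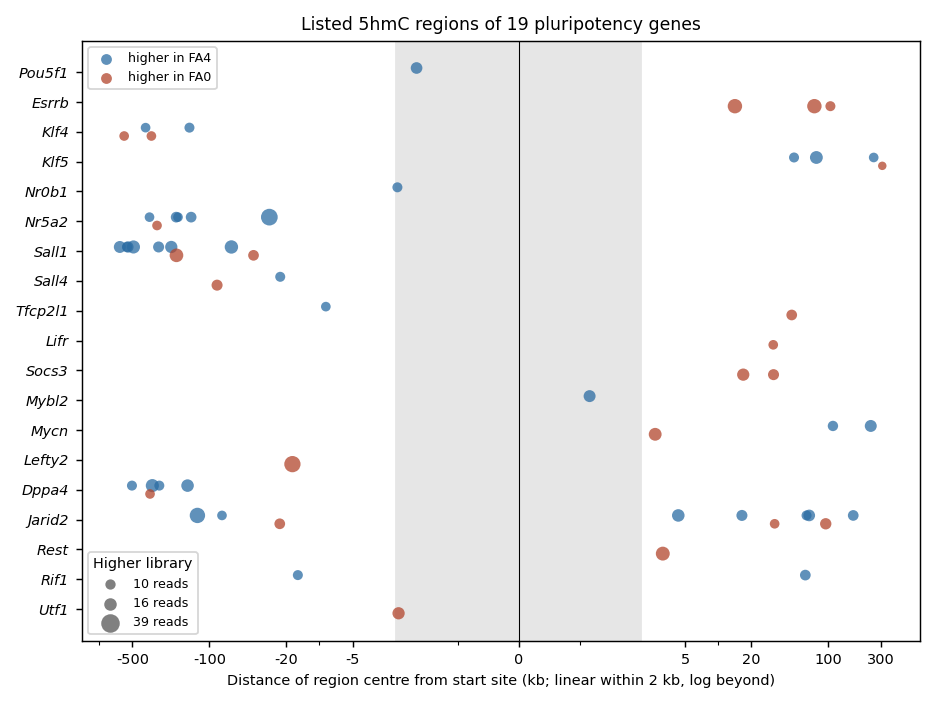
Each point is 1 listed 5hmC region of the 19 genes, placed by the distance in kb of its centre from the start site of the gene (linear within 2 kb, shaded, and logarithmic beyond; negative values lie upstream). Blue points were higher in FA4 and red points higher in FA0, and point area follows the reads of the higher library; 4 regions lie in the shaded zone, and those of Sall1 reach 648 kb upstream.

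Pou5f1, the core factor without which no pluripotent inner cell mass forms, had 1 region, a promoter region at chr17:35504061-35504660 whose centre lies 1671 bp upstream of the start. It held 19 FA4 reads and 1 FA0 read. The count was higher in FA4, and after the scaling of the authors, under which 57.1% of reads fall in FA4 when a region does not differ, the ratio of FA4 to FA0 was 14.2 (2.27 to 592). In the exact two-sided binomial test on reads, p was 0.000355 and did not pass the threshold of 1e-04. A G-test on the scaled counts, from which the thresholds of the tables were inferred, gave a smaller p of 6.67e-05. Because of its null, the exact test asks for more reads of an FA4 region than of an FA0 region. The region overlaps the predicted gene Gm32362. Sox2 and Nanog, the partners of Pou5f1 in the core, had no listed region.

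Among the naive-state factors, Esrrb was the gene whose regions all ran towards FA0. Esrrb, an orphan nuclear receptor that sustains self-renewal, had 3 regions, in an intron 14.2 kb and 74.6 kb past the start and in intergenic sequence 104 kb past the start. The first, at chr12:86435361-86436260, held 4 FA4 reads and 29 FA0 reads, the second 9 and 29 and the third 0 and 14. FA0 was the higher library in all 3, with ratios of FA0 to FA4 of 9.67 (3.39 to 37.8), 4.30 (1.98 to 10.3) and at least 6.22. Here and below, "at least" stands for the higher count set against a floor of 3 reads in a library with 0 reads. All 3 passed the exact test, with p of 1.13e-07 for the first. Within 1 Mb on either side, the regions of other genes were also higher in FA0 more often than not (10 against 6).

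Nr5a2, a nuclear receptor (Lrh1) that can act upstream of Pou5f1, leaned the other way. Its 6 regions were all intergenic, between 28.5 kb and 349 kb upstream of the start on chromosome 1, and 5 were higher in FA4. The region with the most FA4 reads of all 59 was among them, at chr1:136988081-136989780, with 39 FA4 reads and 6 FA0 reads. Its ratio of FA4 to FA0 was 4.87 (2.05 to 14.1), the smallest among the FA4 regions with reads in both libraries, with an exact binomial p of 2.93e-05. The other 4 FA4 regions held 13 to 16 FA4 reads and 0 FA0 reads, and none of these 4 passed the exact test. The FA0 region, 298 kb upstream, held 1 FA4 read and 13 FA0 reads. On chromosome 1 as a whole 27.5% of pairs were higher in FA0, while within 1 Mb of these regions the other listed regions leaned to FA0, 10 against 6.

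Sall1 and Sall4 encode zinc finger proteins of the same family, of which Sall4 binds with Pou5f1 in mESCs. Sall1 had 9 regions on chromosome 8, all intergenic and 39.6 kb to 648 kb upstream, with 7 higher in FA4. These 7 held 14 to 25 FA4 reads and 0 or 1 FA0 reads, and 6 of the 7 passed the exact test. The 2 FA0 regions held 2 FA4 and 16 FA0 reads (39.6 kb upstream) and 7 FA4 and 26 FA0 reads (198 kb upstream), and the second passed, with a ratio of FA0 to FA4 of 4.95 (2.09 to 13.5). Chromosome 8 is rich in FA4 regions, with 32.5% of its pairs higher in FA0, and within 1 Mb of the Sall1 regions the other listed regions numbered 11 in FA0 and 19 in FA4. Sall4 had 2 intergenic regions on chromosome 2. The nearer one, 22.7 kb upstream, held 14 FA4 reads and 0 FA0 reads, and the farther, 84.9 kb upstream, held 0 and 17. The farther was at least 7.56 times higher in FA0, with an exact binomial p of 5.55e-07, and the nearer did not pass.

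The Kruppel-like factors Klf4 and Klf5, which can stand in for one another in mESCs, were bare of regions near their starts. Klf4 had 4 intergenic regions 151 kb to 592 kb upstream on chromosome 4, which alternated in direction with distance. From near to far they held 14 FA4 and 0 FA0 reads, 0 and 13, 13 and 0, and 0 and 13. Both FA0 regions passed the exact test and neither FA4 region did. The nearest regions of opposite direction were 42.3 kb apart. Klf5 had 4 intergenic regions 48.7 kb to 308 kb past its start on chromosome 14, of which the 3 nearest were higher in FA4. The one with the most reads, 77.7 kb past the start, held 23 FA4 reads and 1 FA0 read and was the only Klf5 region to pass the exact test, with a ratio of FA4 to FA0 of 17.2 (2.80 to 711). The farthest held 0 FA4 reads and 10 FA0 reads, the fewest reads of the higher library in any of the 59 regions.

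Tfcp2l1, a factor that LIF and Stat3 induce, and Nr0b1 (Dax1), an orphan receptor that binds the Pou5f1 protein, completed the naive group. Tfcp2l1 had an upstream region 8.74 kb before its start with 13 FA4 and 0 FA0 reads and an intron region 46.4 kb past it with 2 FA4 and 16 FA0 reads. The directions differed, and neither region passed the exact test. Nr0b1 had a promoter region at chrX:86189421-86190160, 1984 bp upstream of its start, with 14 FA4 reads and 0 FA0 reads. The ratio of FA4 to FA0 was at least 3.50, and the exact binomial p of 0.000535 missed the threshold. Klf2, Tbx3 and Prdm14, the remaining naive factors of the list, had no listed region. Over the naive factors together, FA0 was the higher library in 11 regions and FA4 in 20, a share of 35.5% for FA0 (19.2% to 54.6%) against 39.0% over all pairs.

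In LIF signalling, all 3 listed regions were higher in FA0. Lifr, which encodes the LIF-binding subunit of the receptor, had an intron region at chr15:7171621-7172580, 31.6 kb past the start, with 1 FA4 read and 13 FA0 reads. Its ratio of FA0 to FA4 was 17.3 (2.60 to 737), and its exact binomial p of 0.000139 did not pass. Socs3, the Stat3 target that damps the same receptor, had a pair of intergenic regions on chromosome 11. The nearer, at chr11:117952041-117952980 and 16.9 kb past the start, held 3 FA4 reads and 21 FA0 reads, and the farther, 31.7 kb past it, held 2 and 17. Both were higher in FA0, by 9.33 (2.79 to 48.9) and 11.3 (2.69 to 101), and both passed the exact test. Il6st (gp130), which pairs with Lifr, and Stat3 itself had no listed region. With 3 regions in 2 genes, the share higher in FA0 has an interval from 29.2% to 100%, and chromosome 11 as a whole had 52.2% of pairs higher in FA0.

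Of the Myc and Myb factors, Mybl2, a cell cycle regulator of the Myb family, had a promoter region at chr2:163055481-163056100. It lies within the gene, 1156 bp past the start, and held 20 FA4 reads and 0 FA0 reads. The ratio of FA4 to FA0 was at least 5.00, and the exact binomial p of 1.50e-05 passed, as it did for no other FA4 promoter region of the 41 genes. Mycn, a Myc paralog active in embryonic cells, had an intron region at chr12:12938881-12939440, 2676 bp past the start, with 5 FA4 reads and 23 FA0 reads. FA0 was higher there by 6.13 (2.28 to 20.7), with an exact binomial p of 2.77e-05. Its other 2 regions were intergenic, 110 kb and 242 kb past the start, and held 15 FA4 and 0 FA0 reads and 20 FA4 and 1 FA0 reads. Both were higher in FA4, and neither passed the exact test. Myc had no listed region, although its neighbouring protein-coding genes lie 2855 kb apart, the widest such gap of the 41 genes.

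Lefty2, a secreted inhibitor of Nodal signalling, had the FA0 region with the most reads. It lies 17.6 kb upstream of the start, at chr1:180874701-180876340, and held 14 FA4 reads and 37 FA0 reads. Both libraries had reads there, and the ratio of FA0 to FA4 of 3.52 (1.86 to 7.06) was the smallest of the 22 FA0 regions. The exact binomial p was 2.47e-05. The region overlaps the annotated genes Gm18036 and Gm39714. Lefty1, the neighbouring paralog, Tdgf1, the Nodal co-receptor also called Cripto, and the ligand gene Gdf3 had no listed region.

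Among the chromatin-associated factors, Utf1 and Rest had FA0 regions at or near their starts. Utf1, which binds chromatin and is a marker of undifferentiated cells, had a promoter region at chr7:139941461-139942320, 1965 bp upstream of the start. This region overlaps the annotated gene Kndc1. It held 1 FA4 read and 21 FA0 reads. FA0 was higher there by 28.0 (4.50 to 1158), with an exact binomial p of 2.43e-07. Rest, the repressor of neuronal genes in non-neuronal cells, had the sole exon region of the network, at chr5:77268421-77268840 and 3137 bp past the start. It held 7 FA4 reads and 27 FA0 reads, so that FA0 was higher by 5.14 (2.18 to 14.0), with an exact binomial p of 1.70e-05. Both regions passed the exact test. Rif1, which sets replication timing and guards telomeres, had 2 regions. The region 15.7 kb upstream, which overlaps the gene Tnfaip6, held 14 FA4 reads and 0 FA0 reads. The region 61.7 kb past the start held 16 and 0 reads. Both were higher in FA4 and neither passed the exact test.

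Jarid2, which guides the Polycomb complex PRC2 to its targets, had 10 regions on chromosome 13, the most of any of the 41 genes. Of these, 7 were higher in FA4 and 3 in FA0, and 7 lay in introns of the gene. The one with the most reads, at chr13:44602121-44603280 and 128 kb upstream, held 33 FA4 reads and 2 FA0 reads, with a ratio of FA4 to FA0 of 12.4 (3.16 to 106) and an exact binomial p of 1.33e-06. The other 6 FA4 regions held 13 to 22 FA4 reads and 0 or 1 FA0 reads. The 3 FA0 regions held 0 FA4 and 13 FA0 reads (32.5 kb past the start), 2 and 16 reads (22.9 kb upstream) and 3 and 18 reads (94.5 kb past the start). FA0 and FA4 regions were thus interspersed along the gene, with 14.9 kb between the nearest regions of opposite direction. The exact test was passed by 3 of the 7 FA4 regions and by 2 of the 3 FA0 regions. Within 1 Mb of these regions the other listed regions leaned to FA0, 14 against 8.

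Dppa4, which with Dppa2 primes developmental genes in mESCs, had 5 intergenic regions 157 kb to 503 kb upstream on chromosome 16. The 4 higher in FA4 held 14 to 24 FA4 reads and 0 or 1 FA0 reads, and 2 of them passed the exact test. The FA0 region, 345 kb upstream, held 1 FA4 read and 13 FA0 reads and did not pass. Only 1 of the 5 lay within the gap between Dppa4 and its neighbouring protein-coding genes, so the assignment of the others to Dppa4 is that of the tables. Within 1 Mb of the regions of the remaining genes with 3 or more, the other listed regions numbered 1 in FA0 and 7 in FA4 for Dppa4, 5 and 14 for Klf4, 7 and 9 for Klf5, and 2 and 13 for Mycn. Dppa2, Nacc1 and Ronin (listed in the annotation as Thap11) had no listed region. Over the chromatin-associated factors, FA0 was the higher library in 6 regions and FA4 in 13, a share of 31.6% for FA0 (12.6% to 56.6%) against 39.0% over all pairs.

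**Figure D2:**
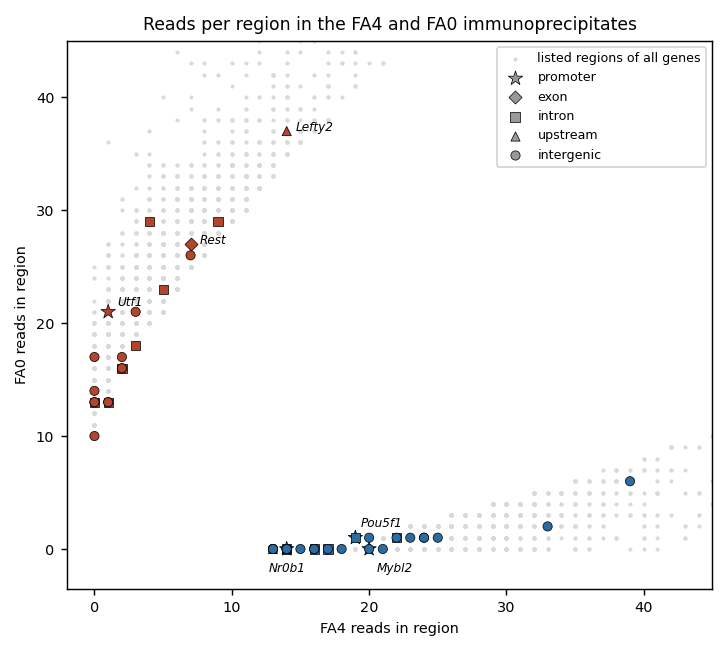
Recovered FA4 reads (x axis) and FA0 reads (y axis) of each region, with the 59 regions of the pluripotency genes as large symbols by region class (blue, higher in FA4; red, higher in FA0) and the listed regions of all genes that fall within the axes as grey dots. The FA4 regions lie along the x axis, 26 of the 37 with 0 FA0 reads, while 6 of the 22 FA0 regions had 0 FA4 reads; the empty band between the groups is left by the thresholds of the tables.

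The remaining genes without a listed region were the RNA-binding regulators Lin28a, Lin28b and Trim71, the stem cell markers Dppa5a, Tcl1, Fbxo15 and Zscan4c, and Otx2, a factor of the exit from the naive state. Genes without a region had a median length of 8.19 kb against 16.9 kb for genes with one, and a median gap between the neighbouring protein-coding genes of 117 kb (5.45 kb to 2855 kb) against 225 kb (30.8 kb to 1495 kb). The ranges overlap widely. A gene without a listed region had none past the thresholds, and its level of 5hmC was not measured here.

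By class, the direction of the regions of the pluripotency genes followed that of the genome in intergenic sequence, which held most of them. Of 39 intergenic regions 12 were higher in FA0, 30.8% (17.0% to 47.6%), against 30.8% of all intergenic pairs. Of 4 promoter regions 1 was higher in FA0 (0.631% to 80.6%), against 61.6% of promoter pairs. The sole exon region was higher in FA0, against 62.5% of exon pairs. Of 12 intron regions 7 were higher in FA0, 58.3% (27.7% to 84.8%), against 43.3%. Of 3 upstream regions 1 was higher in FA0, against 46.9%. The share over all genes lay inside the interval of the pluripotency genes in every class. With 1 exon region (2.5% to 100%), 3 upstream regions (0.840% to 90.6%) and 4 promoter regions, the intervals are too wide to show agreement or difference. Jarid2 held 7 of the 12 intron regions, 5 higher in FA4 and 2 in FA0, and the other 5 (2 of Esrrb and 1 each of Lifr, Mycn and Tfcp2l1) were higher in FA0, a split that was noticed after the values were seen.

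**Figure D3:**
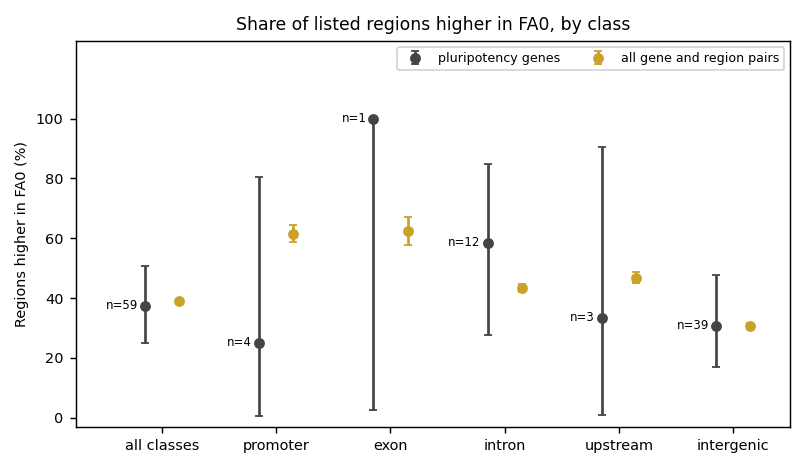
Percent of listed regions higher in FA0, by region class, for the pluripotency genes (dark points, with the number of regions) and for all pairs of gene and region (yellow points). Bars are 95% Clopper-Pearson intervals. Those of the pluripotency genes span the value over all pairs in each class. In the exon, upstream and promoter classes they are too wide to show agreement or difference. The closest match is the intergenic class at 30.8% for both.

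Reads were alike in the FA0 and FA4 regions, while the FA4 regions were longer and farther from start sites by their medians, as were the FA4 regions of all genes. The FA0 regions had a median of 16.5 FA0 reads (10 to 37) and a median length of 650 bp, against 760 bp for all FA0 pairs. The FA4 regions had a median of 16 FA4 reads (13 to 39) and a median length of 980 bp, against 1080 bp for all FA4 pairs. The share with 0 reads in the lower library was 27.3% for FA0 regions (32.3% over all FA0 pairs) and 70.3% for FA4 regions (80.8% over all FA4 pairs). The median distance from the start was 43.0 kb for FA0 regions and 146 kb for FA4 regions, against 27.3 kb and 62.9 kb over all pairs. Of the 22 FA0 regions 12 lay within 50 kb of the start, and of the 37 FA4 regions 10 did, so that among near regions 54.5% were higher in FA0, against 47.6% over all near pairs. Of the 59 regions 14 overlapped the gene they were assigned to, and 11 overlapped another annotated gene.

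The exact test on reads was passed by 15 of the 22 FA0 regions (68.2%), against 74.7% of all FA0 pairs, and by 14 of the 37 FA4 regions (37.8%), against 26.2% of all FA4 pairs. Of those 14 FA4 regions 6 were of Sall1, and without Sall1 the test was passed by 8 of 30 (26.7%). Among the regions that passed, 51.7% were higher in FA0, against 64.6% of all pairs that passed. With the exact test run on unscaled reads at equal shares, 3 FA0 regions and 22 FA4 regions passed (12.0% in FA0, against 9.78% over all pairs). A minimum of 20 normalized counts in the higher library left 9 FA0 regions and 5 FA4 regions (64.3% in FA0, against 72.0% over all pairs). After scaling, 1 read counts as 0.866 in FA4 and 1.15 in FA0, so this minimum asks for more reads of an FA4 region.

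**Figure D4:**
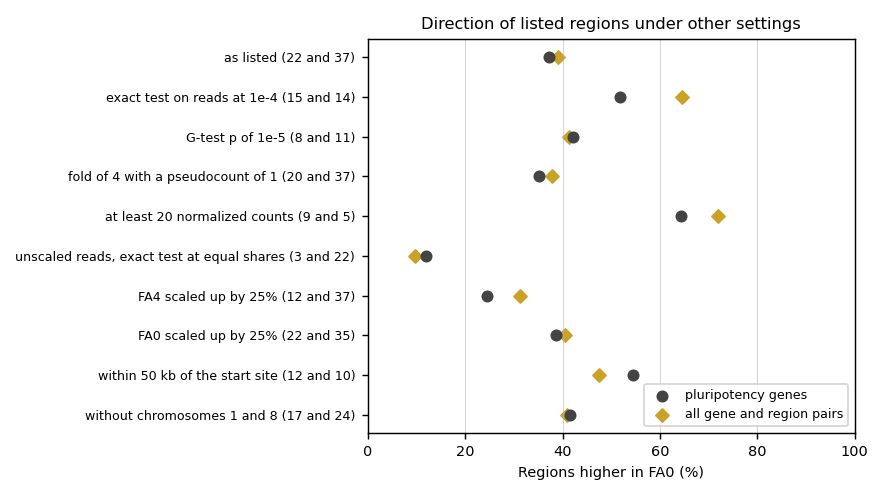
Percent of regions higher in FA0 (x axis) under each setting (y axis, with the numbers of FA0 and FA4 regions of the pluripotency genes in brackets), for the pluripotency genes (circles) and all pairs (diamonds). The lowest values, 12.0% and 9.78%, are on unscaled reads and the highest, 64.3% and 72.0%, at a minimum of 20 normalized counts.

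A further list of 75 genes of the same network gave its surroundings. Of these, 44 had a listed region, where 35.7% of all protein-coding genes did, and FA0 was the higher library in 43 of their 83 regions and FA4 in 40 (51.8% in FA0, 40.6% to 62.9%), against 39.0% in FA0 over all pairs. By gene, 19 had FA0 regions alone, 12 had FA4 regions alone and 13 had both, where all symbols with a region gave 35.0%, 40.7% and 24.3%. On unscaled reads the order turned, with 5 genes in FA0 alone, 16 in FA4 alone and 1 in both. Of all pairs that passed on unscaled reads, 9.78% were higher in FA0. The counts by group below are small and are to be read against the same shares over all symbols. Among 15 genes of the formative or primed state, into which naive cells pass as they start to differentiate, 11 had a region, 7 of them in FA0 alone, 2 in FA4 alone and 2 in both (all symbols: 35.0%, 40.7% and 24.3%). The upstream regions of the methyltransferase genes Dnmt3a and Dnmt3b held 1 FA4 and 13 FA0 reads and 0 and 10 reads. The promoter region of Pou3f1 (Oct6) held 6 FA4 reads and 23 FA0 reads. That of Cer1, an inhibitor of Nodal, held 23 FA4 reads and 2 FA0 reads, and that of Grhl2 held 18 and 0. The regions of Dnmt3a, Dnmt3b and Pou3f1 were higher in FA0, and the promoter regions of Cer1 and Grhl2 in FA4. Grhl2 also had intron regions with 4 FA4 and 22 FA0 reads and with 3 and 22 reads, higher in FA0. The regions of Dnmt3a, Dnmt3b and Cer1 did not pass the exact test, and those of Pou3f1 and Grhl2 did.

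Among 20 further naive or core factors, 10 had a region, 3 in FA0 alone, 3 in FA4 alone and 4 in both, beside 35.0%, 40.7% and 24.3% of all symbols. Dppa3 (Stella), which protects DNA methylation marks in the early embryo, had an exon region with 0 FA4 and 18 FA0 reads, at least 8 times higher in FA0. Gbx2, a homeobox gene that LIF and Stat3 induce, had 3 regions with 0, 1 and 0 FA4 reads and 12, 13 and 15 FA0 reads. The Dppa3 region passed the exact test, as did those of Gbx2 with 12 and 15 FA0 reads, while the one with 13 did not. Zfp42 (Rex1), the usual reporter gene of the naive state, had 4 intergenic regions. Of these, 3 were higher in FA4, with 16 to 26 FA4 reads, and 1 held 0 FA4 and 11 FA0 reads. The FA0 region and the FA4 region with 26 reads passed the exact test, and the others did not.

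Among 20 signalling genes of self-renewal, 13 had a region, 7 in FA0 alone, 3 in FA4 alone and 3 in both, again beside 35.0%, 40.7% and 24.3% of all symbols. Lif itself had an intergenic region with 3 FA4 and 24 FA0 reads, 10.7 times higher in FA0, and Jak1, the kinase that the LIF receptor uses, had one with 7 FA4 and 26 FA0 reads. Both passed the exact test and lay in the same direction as the regions of Lifr and Socs3. Among 20 chromatin partners, 10 had a region, 2 in FA0 alone, 4 in FA4 alone and 4 in both, beside the same shares of all symbols. Tet1, the main TET enzyme of mESCs, had an intron region with 0 FA4 and 12 FA0 reads and an upstream region with 1 and 14 reads, both higher in FA0. Tet2 had an exon region with 0 FA4 and 11 FA0 reads and 3 further regions with 13 to 20 FA4 reads and 0 FA0 reads. Tet2 thus had regions in both directions. The exact test was passed by both Tet1 regions, the Tet2 exon region and the Tet2 region with 20 FA4 reads, and not by the other Tet2 regions.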

How the data were processed

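The authors deposited 4 tables of differential 5hmC regions (mm10), 2 for the whole genome, used here, and 2 for promoters, whose 1386 rows all stand in the former. Each gives a signal per library, the reads of a region multiplied by 1 factor per library. The submitters' processing notes name cutadapt 1.9.1 and Bowtie2 2.2.4, and the region caller is not given in the sources used here. Deposited signals were multiples of 0.866 (FA4) and 1.15 (FA0), so whole reads were recovered by division (100% of values, tolerance 0.02 reads). Columns of fold, p-value and FDR hold the study's own comparison and were not used, nor were 8 columns of averages per sample.

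A G-test on the signals gave p of at most 9.86e-05 and folds (0.1 added) of at least 2.01 for every listed region, which were taken as the thresholds of the tables. Shares have Clopper-Pearson intervals. Ratios are of signals, with exact conditional binomial intervals, and a library with 0 reads was set at a floor of 3 reads. The exact binomial test took 57.1% FA4 reads as its null and a threshold of 1e-04. Calls were made on all pairs, and no p was adjusted over the list. Genes were matched to GRCm38.p6 by accession or synonym, and sequences are from RefSeq.

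The genes and lists were chosen with earlier results of these data known. All 41 genes are named, and reads are given for every promoter and exon region, for the region with most reads per direction and role, and for genes with 3 or more regions. Other tests, thresholds, scalings, distances and chromosomes were tried, and runs without Jarid2 or Sall1 were chosen after seeing the data. The calculations were tested on simulated data with Python 3.11.15, numpy 2.4.6, pandas 2.3.3 and scipy 1.17.1, and plots used matplotlib 3.10.9.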

Additional observations from a re-analysis of the deposited data

How the results depend on the processing

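The share of regions of the pluripotency genes higher in FA0 was 37.3% as listed and ranged from 12.0% to 64.3% over the settings tried. The exact test left 15 FA0 and 14 FA4 regions (51.7% in FA0). A G-test p of 1e-05 left 8 and 11. A minimum of 20 normalized counts, which asks for more reads of an FA4 region than of an FA0 region, left 9 and 5 (64.3%). Unscaled reads left 3 and 22 (12.0%), and FA4 scaled up by 25% left 12 and 37 (24.5%). Within 50 kb of start sites there were 12 and 10 (54.5%), and without chromosomes 1 and 8 there were 17 and 24. A fold of 4, FA0 scaled up by 25% and runs without Jarid2 (38.8%) or Sall1 (40.0%) moved the counts by less than 1.5 times. Counting each gene by its summed counts gave 9 of 19 genes higher in FA0 (47.4%), inside the interval of the listed share (25% to 50.9%). Region by region, 30 of the 59 were lost in the exact test, 34 on unscaled reads, 10 with FA4 scaled up and 2 with FA0 scaled up. The promoter region of Pou5f1 was lost in the exact test, at p of 1e-05, at 20 counts and with FA0 scaled up, that of Nr0b1 in the exact test, at p of 1e-05, at 20 counts and on unscaled reads, that of Mybl2 at 20 counts, and the exon region of Rest at p of 1e-05 and on unscaled reads. The Utf1 region passed in all of these runs. For the further 75 genes, the exact test left 21 genes in FA0 alone, 2 in FA4 alone and 6 in both. Unscaled reads left 5 in FA0 alone, 16 in FA4 alone and 1 in both. The limit of 50 kb left 20, 15 and 5. Over all pairs, the exact test left 64.6% in FA0 and unscaled reads 9.78%. No paired analysis was possible because each condition had 1 library. Depth limits every region, since the higher library held 10 to 39 reads. The cause of these shifts was not tested.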
